A study of Mus musculus with 12 samples.

Results

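Conversion to muscle by MyoD was measured in C3H/10T1/2 cells that carry a hairpin against Six4. Of the 12 single-colour Agilent arrays of the study, the 6 arrays of the shSix4 line were compared here, 3 from cells infected with the pBABE-MyoD retrovirus and 3 from cells infected with empty pBABE. C3H/10T1/2 is a mouse embryonic fibroblast line. The titles, source names and characteristics give this line and these groups, whereas the description field of the same samples names C2C12 myoblasts at stages of differentiation; the groups here follow the former, and the conflict is not resolved in the labels. Both groups come from the same stable shSix4 line, were grown with 10% fetal bovine serum, infected, and from 24 h after infection kept for 24 h in a differentiation medium (2% horse serum), so the empty-vector cells had been through the same serum change. The MyoD that was delivered carries Flag and myc tags, per the labels. The other 6 arrays, from a line with the hairpin shLuc and the same vectors, entered the fit and are cited where the lines were compared. The labels do not say whether the shSix4 line is 1 clone or whether replicates were separate cultures, so the p-values cover only the variation among these arrays, part of which may be technical.

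MyoD is a basic helix-loop-helix factor that binds E-boxes and can turn fibroblasts into skeletal muscle cells. It starts a cascade in which myogenin and MEF2 factors take over, after which the genes of the sarcomere, of calcium handling and of the neuromuscular junction are switched on. Six4 is a homeobox factor of the sine oculis family, whose members bind MEF3 sites and act with MyoD on muscle genes. The design asks what MyoD still induces and represses when Six4 is low.

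Levels are given as log2 signal relative to the 75th percentile of the same array, and changes as the log2 difference between MyoD and empty vector. They come from a limma fit over all 12 arrays with the slide as a block, since the arrays with the same replicate number lay on 1 slide. Errors of changes are standard errors (SE, 3 arrays a group), and p-values are limma's, adjusted by Benjamini-Hochberg over 12278 genes, with a threshold of 0.05. A gene that was well above background on no empty-vector array has only a bound, written as "at least N-fold". The bound is that of the gene's brightest probe, and another probe of the gene can give a smaller change. Where fitted changes of such genes are still given, as in figures, medians and comparisons of the lines, they rest on empty-vector signals below detection.

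Six4 itself was measured at -4.03, -2.94 and -2.76 in empty-vector cells and at -2.97, -2.86 and -1.47 with MyoD, on slides 1, 2 and 3. Its change of 0.81 ± 0.26 did not pass (adjusted p = 0.0995), and the groups overlap. In the shLuc line it read -2.55, -2.82 and -1.58 with empty vector and -1.38, -1.58 and -0.78 with MyoD, so on every slide the shSix4 array was the lower of the pair with the same vector. The 1 Myod1 probe read -4.31 and -1.95 with empty vector, where the spot on slide 3 carried an outlier mark, and -2.11, -0.79 and -0.15 with MyoD. This rise of 1.68 ± 0.49, fitted without the marked spot, did not pass the threshold (adjusted p = 0.0892). It was 3.61 ± 0.49 in the shLuc line (adjusted p = 0.0309), and the test of the difference gave -1.93 (adjusted p = 0.732). No label used here states if this probe detects RNA from the retrovirus.

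On the 6 arrays, 22235 to 27429 of 41174 probes gave a signal well above background. Slide 1 stood apart. Over 12133 genes with a value on every array, its arrays correlated with those of their own group on slides 2 and 3 at r = 0.955 to 0.961, against 0.993 and 0.990 between slides 2 and 3. Slide 1 was scanned on another day, per the file headers. Fibroblast markers were well above background on all 6 arrays for 8 of 8 genes, with a summed level of 10.64 to 10.84 without and 10.44 to 10.87 with MyoD. Of 8 muscle markers, 3 were above background on all empty-vector arrays and 8 on all MyoD arrays, and the ranges of their summed level, 1.42 to 3.41 and 7.52 to 8.21, do not overlap. Of the markers of other cell types, Ptprc and Itgam (leukocyte), Pecam1, Cdh5 and Kdr (endothelial), Epcam (epithelial), Adipoq, Plin1 and Cfd (adipocyte) and Ibsp (bone) were above background on no array of either group. Others were present. The adipocyte marker Fabp4, the bone and cartilage markers Bglap, Sp7, Col2a1 and Acan, the epithelial marker Cdh1, the neural markers Tubb3 and Map2 and the smooth muscle markers Cnn1, Acta2 and Tagln were above background on all 6 arrays. The endothelial marker Tek was above it on 3 empty-vector and 2 MyoD arrays, the leukocyte marker Adgre1 on 1 and 0, the epithelial markers Krt8 on 0 and 2 and Krt18 on 0 and 3, the neural marker Syp on 1 and 1, and the smooth muscle marker Myh11 on 0 and 2. In these bulk samples, more converted cells and more RNA per converted cell cannot be told apart.

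Promoter bases of 6 genes are shown because the first 4 belong to genes with large rises and the other two to lowered genes that stayed past the threshold whichever array was left out. They are the 250 bases before the RefSeq start (GRCm38.p6), 5′ to 3′ on the gene's strand, with E-boxes (CANNTG) and the MEF3 letters TCAGGTTTC in capitals.
Myog, chr1:134289754-134290003, plus strand: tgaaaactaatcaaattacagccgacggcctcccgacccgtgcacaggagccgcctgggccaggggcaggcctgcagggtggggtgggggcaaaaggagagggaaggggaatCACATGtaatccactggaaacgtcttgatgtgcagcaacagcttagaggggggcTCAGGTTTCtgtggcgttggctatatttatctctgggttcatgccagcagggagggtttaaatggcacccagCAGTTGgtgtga
Chrna1, chr2:73580339-73580588, minus strand: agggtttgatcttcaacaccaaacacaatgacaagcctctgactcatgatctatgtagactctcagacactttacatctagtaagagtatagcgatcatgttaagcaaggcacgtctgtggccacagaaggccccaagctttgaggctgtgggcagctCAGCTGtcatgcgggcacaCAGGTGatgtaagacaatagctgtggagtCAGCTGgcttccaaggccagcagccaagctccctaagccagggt
Chrng, chr1:87205561-87205810, plus strand: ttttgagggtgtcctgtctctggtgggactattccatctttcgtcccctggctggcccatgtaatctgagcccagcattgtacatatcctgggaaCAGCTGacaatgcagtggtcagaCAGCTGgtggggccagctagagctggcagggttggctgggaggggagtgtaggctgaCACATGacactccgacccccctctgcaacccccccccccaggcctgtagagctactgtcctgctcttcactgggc
Mylpf, chr7:127211358-127211607, plus strand: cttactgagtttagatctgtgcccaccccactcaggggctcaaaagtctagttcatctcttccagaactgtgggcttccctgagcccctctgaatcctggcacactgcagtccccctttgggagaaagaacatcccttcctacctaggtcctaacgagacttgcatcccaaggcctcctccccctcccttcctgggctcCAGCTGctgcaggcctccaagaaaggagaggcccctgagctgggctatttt
Gjb5, chr4:127358165-127358414, minus strand: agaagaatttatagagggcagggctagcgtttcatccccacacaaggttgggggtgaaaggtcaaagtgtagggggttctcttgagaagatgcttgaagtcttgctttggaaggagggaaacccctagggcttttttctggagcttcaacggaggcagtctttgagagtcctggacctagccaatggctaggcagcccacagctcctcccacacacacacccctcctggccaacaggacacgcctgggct
Cspg4, chr9:56864854-56865103, plus strand: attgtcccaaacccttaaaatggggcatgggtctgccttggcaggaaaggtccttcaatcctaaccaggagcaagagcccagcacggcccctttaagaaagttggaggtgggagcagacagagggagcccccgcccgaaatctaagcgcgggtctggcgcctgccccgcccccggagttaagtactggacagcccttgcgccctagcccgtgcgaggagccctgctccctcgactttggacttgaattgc
The promoter of Myog, myogenin, holds the MEF3 letters from base -84 and E-boxes from bases -138 and -12 before the start. That of Chrna1, the alpha subunit of the muscle acetylcholine receptor, holds 3 E-boxes, from bases -92, -73 and -44, and that of its fetal gamma subunit Chrng 3, from -155, -132 and -75. Mylpf, a fast regulatory myosin light chain, has 1 E-box, from base -51. Gjb5, a gap junction protein, and Cspg4, the NG2 proteoglycan, have none in these bases. Other lowered genes have some in the wider window from 250 bases before to 50 after the start, among them Car6 and Pde5a with 3 each and Btc with 4, so the 6 promoters are examples from which no contrast between raised and lowered genes is drawn.

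MyoD raised 712 of 12278 genes (5.80%) and lowered 266 (2.17%), together 7.97% of the genes tested. The rises were large. Their median was 1.47, and 488 of the 712 (68.5%) reached 2-fold, with 87 genes between 4 and 8 on the log2 scale and 14 at 8 or more. The falls were small, with a median of -0.72, a largest value of -1.97 and 44 of 266 (16.5%) at 2-fold or more. On each of the 3 slides, 710 raised and 266 lowered genes kept their direction. The lowest MyoD array lay above the highest empty-vector array for 591 raised genes, and the reverse held for 139 lowered genes, where 7.43% and 6.89% of all genes tested separate in these ways. The median change over all genes was -0.046.

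**Figure D1:**
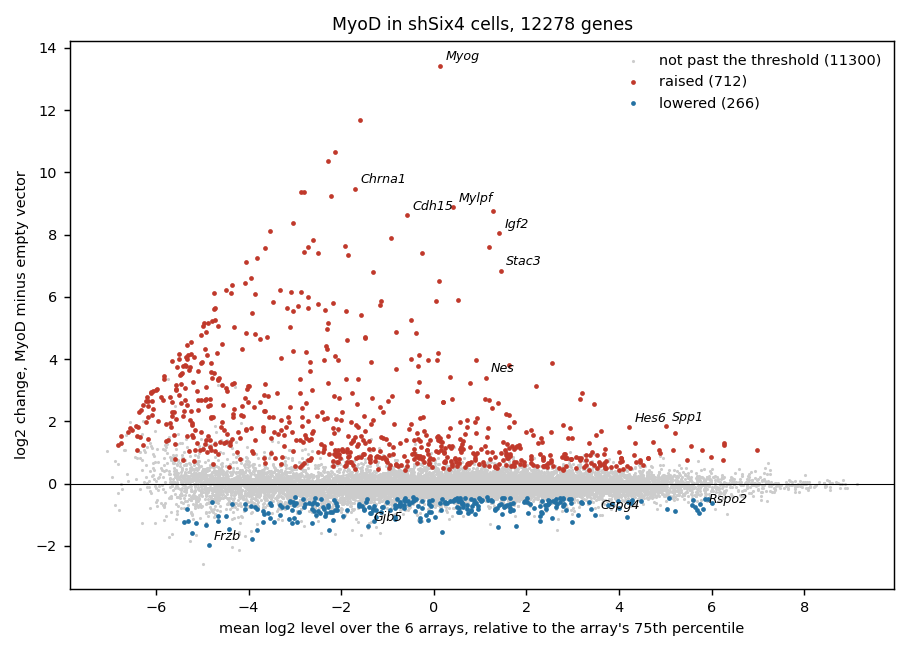
Change between MyoD and empty vector in shSix4 cells (y, log2) against the mean level over the 6 arrays (x, log2 relative to the 75th percentile of the array) for 12278 genes. The 712 raised genes reach 13.43 (Myog) and the 266 lowered genes reach -1.97 (Frzb); grey points did not pass the threshold.

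Without the slide block, 358 genes were raised (2.92%) and 13 lowered (0.106%), all of them among the calls with the block, so most calls for falls rest on comparing arrays within a slide. On slides 2 and 3 alone, an alternative chosen after seeing the data, 539 genes were raised (4.39%) and 50 lowered (0.407%). Of these, 479 and 35 were also called over all slides. The lowered count was 40 without replicate 1 of the MyoD group, 76 without its replicate 3, 67 without replicate 1 and 65 without replicate 3 of the empty-vector group, and 155 and 140 without replicate 3 of the shLuc empty-vector and MyoD groups. Of 107 raised genes named by rule, 88 stayed past the threshold whichever array was left out, against 5 of 47 lowered genes (Gjb5, Oas1c, Cspg4, Oas1a and Hoxa2). The 19 raised genes that lost their call with some array left out were Acvr2a, Adamts4, Areg, Atf6, Bhlhe40, Ccn4, Cryab, Hspb3, Id2, Kcnj12, Kcnn3, Krt18, Nkd1, Pmaip1, Ptgis, Rbfox1, Tgfb3, Thbs1 and Wnt9a. Without the block 76 of the 107 and 8 of the 47 (Car6, Dgki, Wnt5b, Gjb5, Oas1c, Nqo1, Cspg4 and Papss2) passed. The other 31 raised genes included Acvr2a, Adamts4, Areg, Atf6, Axin2, Bhlhe40, Bhlhe41, Ccn4, Cd36, Cryab, Has2, Hspb1, Hspb3, Id2, Il15, Il6, Kcnj12, Kcnn3, Krt18, Mef2a, Mmp15, Nkd1, Pmaip1, Ptgis, Qk, Spp1, Spry4, Tgfb3, Thbs1 and Wnt9a.

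Some raised genes started below detection. Of the 712, 166 were well above background on no empty-vector array, which leaves 153 with a bound and 13 with none, and 464 were above background on all 6 arrays. The filter on dim probes keeps a gene that is bright on all arrays of any of the 4 groups, those of the shLuc line included. Genes that passed only through the shSix4 MyoD group had to be brighter with MyoD, and genes dim without MyoD could hardly fall. List members that failed the filter are left out of the counts. The list counts below are therefore read beside the shares over all genes tested, 5.80% raised and 2.17% lowered.

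Myog, the factor that commits myoblasts to terminal differentiation, had the largest rise. It read -6.29, -7.02 and -6.42 without MyoD, below background, and 7.22, 6.45 and 6.90 with it, a signal at least 4596-fold higher (adjusted p = 1.38e-08). Among the other large rises were those of the acetylcholine receptor genes, with Chrng at -7.01, -7.59 and -7.72 without and 5.01, 3.75 and 3.95 with MyoD (at least 747-fold, adjusted p = 8.02e-07). Chrna1 read -6.18, -6.91 and -6.20 without and 3.33, 2.51 and 3.28 with MyoD, at least 326-fold higher (adjusted p = 5.91e-10). On each of these the groups are far apart on every slide. Another kept probe of Chrng rose by 5.17 and another of Chrna1 by 7.90, less than the log2 bounds of 9.54 and 8.35 from the brightest probes. Every bound here rests on the background correction of the deposited signal. With normexp, which adds a constant to each signal, the fitted folds were 1270 for Myog, 219 for Chrng and 98 for Chrna1, and they lay below the bound for 27 of the 28 raised genes that are named by rule and have one. Of the 28, 22 were past the threshold there, all but Cdkn1c, Hspb3, Kcnj12, Krt18, Rbfox1 and Vwf (adjusted p from 0.0839 to 0.38). Outside the 28, the raised genes Cd36, Ephb1 and Kcnn3, which were dim without MyoD and have no bound, also lost their calls with normexp.

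Many of the thick filament genes that could be tested rose. Of 17 tested genes of myosins and their partners, 12 rose and 0 fell, with a median change of 4.45 (2.21 where each bounded gene stands at its bound). The list held 24 genes, of which 5 were too dim to test and 2 had no named probe. For 8 of the 17 there was only a bound, and these could hardly fall, so the share and the median depend in part on the filter. Mylpf read -3.02, -4.62 and -4.42 without and 5.17, 4.53 and 4.87 with MyoD, a rise of 8.88 ± 0.24 (adjusted p = 3.95e-08). The alkali light chain Myl1 was at least 364-fold, the embryonic heavy chain Myh3 at least 295-fold, myosin binding protein H (Mybph) at least 149-fold and the myosin chaperone Unc45b at least 145-fold higher, while the folds with normexp were 111, 93.3, 37.5 and 51.4 in that order. Another probe of Myl1 rose by 5.70, below its log2 bound of 8.51. Those of Myh3 (9.40) and Mybph (9.19) lay above their bounds of 8.20 and 7.22. Slide 1 gave the smallest median for this list, 2.78 against 5.24 and 5.33 on slides 2 and 3.

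Thin filament genes rose in 13 of 20 cases and fell in 0 (median 2.50). The fast troponin C gene Tnnc2, the calcium sensor of fast fibres, read -3.05, -3.59 and -2.67 without and 5.84, 5.34 and 5.79 with MyoD, a rise of 8.76 ± 0.21. Tnnt3 rose by 7.89 ± 0.69, Tnnt2, the cardiac troponin T that embryonic muscle also makes, by 7.62 ± 0.33, and the actin nucleator Lmod3 by 7.40 ± 0.26 (adjusted p between 1.38e-08 and 7.68e-05 for these 4 genes). Skeletal actin, Acta1, was already present, at 3.36, 1.33 and 1.84, and reached 5.25, 4.20 and 4.80 (change 2.57 ± 0.27, adjusted p = 0.000251).

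In the titin, M-band and Z-disc list 17 of 25 genes rose and 1 fell. The M-band protein Myom3 was at least 87.9-fold higher and Myom2 rose by 6.50 ± 0.30. Titin (Ttn), above background on 1 empty-vector array, rose by 5.71 ± 0.43, and desmin (Des), the muscle intermediate filament, was at least 11.4-fold higher (adjusted p = 8.59e-06). The other kept probes of Ttn rose less, by 1.19 to 4.98. The rises of 1.19 and 1.67 did not pass (adjusted p = 0.0618 and 0.0825 in a limma fit over all kept named probes). The 1 gene of the list that fell was Synm, synemin, an intermediate filament partner of desmin, at -0.76 ± 0.18 (adjusted p = 0.0333, and 0.885 without the block).

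Calcium handling and excitation-contraction coupling rose with the sarcomere, in 17 of 25 genes with 0 lowered (median 2.44, and 1.68 where each bounded gene stands at its bound). Stac3, which links the voltage sensor to calcium release, was above background on all 6 arrays and went from -1.53, -1.82 and -2.58 to 5.99, 4.51 and 4.11 (6.85 ± 0.30, adjusted p = 5.95e-07). The luminal calcium binder Hrc was at least 87.8-fold higher. Jsrp1 rose by 6.15 ± 0.57 and the ryanodine receptor Ryr1 by 5.56 ± 0.88, each above background on 1 empty-vector array; for Ryr1 that array was on slide 2 (-3.01, against -6.92 and -7.54). Of the genes for the acetylcholine receptor and the neuromuscular junction, 9 of 14 rose and 0 fell. Besides Chrna1 and Chrng they include Chrnb1 (4.33 ± 0.31) and the receptor clustering protein Rapsn (at least 27.0-fold).

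**Figure D2:**
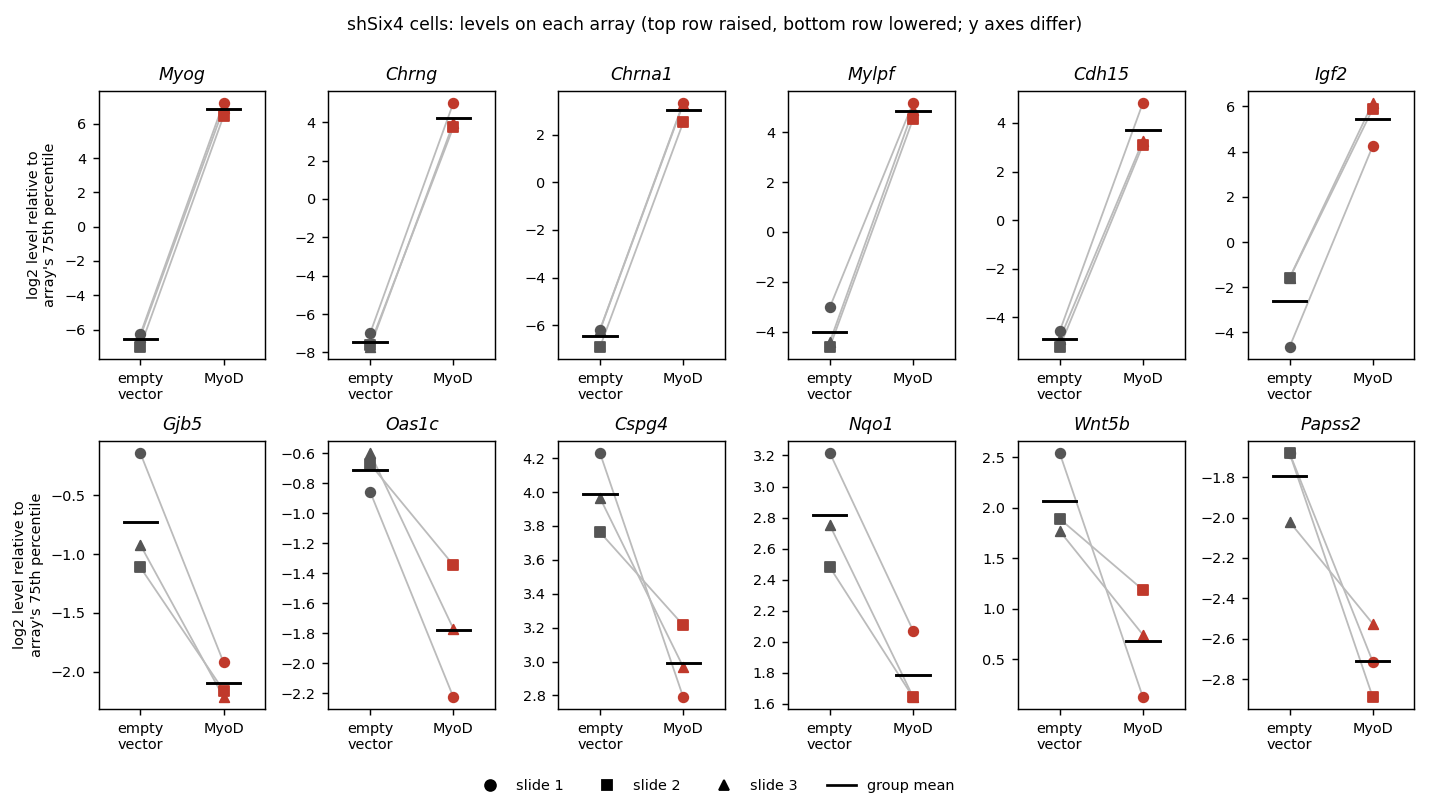
Levels (y, log2 relative to the 75th percentile of the array) of 12 genes on the 6 shSix4 arrays, with lines joining the arrays of a slide and bars at group means of 3 arrays. The upper 6 genes rise on every slide, by 8.05 (Igf2) to 13.43 (Myog), and the lower 6 fall on every slide, by 0.92 (Papss2) to 1.38 (Gjb5 and Wnt5b); y axes differ.

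Among 20 myogenic transcription factors and cofactors 9 rose and 0 fell. After Myog the largest changes were those of Sox8 (4.82 ± 0.70), Vgll2, a cofactor of TEAD factors (at least 3.43-fold), and Mef2a, a partner of MyoD and myogenin (1.41 ± 0.21, adjusted p = 0.00263). RNA-binding regulators of muscle splicing rose in 5 of 14 cases. The largest change was that of Rbm24, at least 84.0-fold, followed by Rbfox1 at least 3.24-fold, Celf2 at 1.46 ± 0.18 and Qk at 1.31 ± 0.21. Another probe of Rbm24 rose by 6.01, below its log2 bound of 6.39. Adaptors of ubiquitin ligases with Asb or kelch domains rose in 7 of 14 cases, with Asb2 at least 28.2-fold, Klhl41 at least 22.0-fold, Klhl40 at 6.22 ± 0.57 and Klhl30 at 4.43 ± 0.19. Klhl40 was above background on only 1 empty-vector array, and its smallest rise in any alternative was 3.54, so its size is uncertain.

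Cell surface genes of fusion and adhesion moved less as a group, with 11 of 37 raised, 1 lowered and a median of 0.070. The largest rises were those of Tspan33, a tetraspanin (at least 211-fold), and of the myoblast cadherin Cdh15. Another probe of Tspan33 rose by only 3.61, below its log2 bound of 7.72. Cdh15 read -4.57, -5.22 and -4.91 without and 4.83, 3.10 and 3.26 with MyoD (8.63 ± 0.23, adjusted p = 3.67e-08). The laminin receptor chain Itga7 rose by 5.42 ± 0.15, and the fusogen Mymk, myomaker, went from -0.91, -0.32 and 0.77 to 2.14, 2.47 and 2.98 (2.68 ± 0.27, adjusted p = 0.000236). In the dystrophin complex list 5 of 22 genes rose, among them alpha-sarcoglycan (Sgca, 3.99 ± 0.26), Lama5 (3.77 ± 0.30), Ank1 (2.81 ± 0.16) and Lama2 (1.80 ± 0.33), and 0 fell. The 1 fusion gene that fell was Kirrel3, an adhesion protein of the nephrin family (-0.62 ± 0.14, adjusted p = 0.0309, and 0.186 without the block).

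Metabolic genes split. Muscle isoforms of creatine and glycolytic enzymes rose, namely Ckm (at least 22.5-fold), Pgam2 (3.92 ± 0.29) and Eno3 (3.88 ± 0.21), and so did myoglobin (Mb, at least 25.4-fold), but only 6 of 26 list members rose and the median was 0.29. Of 31 respiratory chain genes 1 rose and 0 fell. It was Cox8b, the muscle isoform of a cytochrome oxidase subunit, at least 43.5-fold. Over all 31 members, Cox8b included, 25 changes were above 0 and the median was 0.19. Only 2 of 8 channel genes rose, Kcnj12 (at least 1.39-fold) and Kcnn3, which was below background without MyoD. Of 17 small heat shock proteins and chaperones 4 rose and 1 fell, with a list median of 0.081. Those that rose were Hspb2 (1.90 ± 0.23), Hspb1 (1.40 ± 0.22), Hspb3 (at least 2.12-fold) and Cryab (0.67 ± 0.15), of which only Hspb2 passed without the block. The inducible Hspa1a fell by 0.55 ± 0.13.

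Some growth factor genes rose, while the medians of their lists were near 0. Igf2, which muscle cells secrete as they differentiate, read -4.65, -1.60 and -1.59 without and 4.25, 5.89 and 6.16 with MyoD, a rise of 8.05 ± 0.36 (adjusted p = 6.81e-07), with slide 1 lowest in both groups. The IGF binding proteins Igfbp1 (at least 7.21-fold), Igfbp5 (3.92 ± 0.22) and Igfbp3 (2.12 ± 0.26) rose too, so that 4 of 14 genes of the axis rose and 0 fell (median 0.25). In the list of EGF, FGF, PDGF and HGF ligands, receptors and feedback regulators 10 of 35 rose and 1 fell. Its median was 0.015, with 18 of 35 changes above 0, and 4 members were raised without the block. The feedback inhibitor Spry1 went from -1.60, -1.12 and -0.62 to 1.35, 1.04 and 2.12 (2.62 ± 0.18, adjusted p = 1.33e-05), Spry4 rose by 2.39 ± 0.45, Fgf21 by 2.61 ± 0.44 and amphiregulin (Areg) by 3.03 ± 0.64. Areg was above background on only 1 empty-vector array and did not pass without the block (adjusted p = 0.125). Betacellulin (Btc), another EGF receptor ligand, fell by 1.24 ± 0.24 (adjusted p = 0.0123, and 0.0751 without the block).

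Notch genes rose in 8 of 21 cases with 0 lowered. The ligand Dll1, above background on 1 empty-vector array, went from -5.96, -5.34 and -4.89 to 0.71, -0.05 and 0.49 (5.78 ± 0.27, adjusted p = 9.67e-07). The targets Hey1 (2.15 ± 0.30) and Hes1 (1.29 ± 0.17) rose, as did Hes6 (1.82 ± 0.20), a relative of Hes1 known to oppose it and to favour differentiation. Of 19 genes that inhibit myogenic helix-loop-helix factors 3 rose and 0 fell, namely Bhlhe41 (1.42 ± 0.20), Bhlhe40 (0.90 ± 0.22) and Id2 (0.73 ± 0.15), and the list median was -0.016. Bhlhe41 was above background on only 1 empty-vector array.

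In the list of CDK inhibitors, the retinoblastoma family and related regulators 6 of 19 genes rose. Cdkn1c (p57) was at least 2.38-fold higher, the CDK5 activator Cdk5r1 rose by 3.68 ± 0.21, Rb1 by 1.66 ± 0.18, Gadd45g by 1.32 ± 0.16 and Cdkn1a (p21) by 0.92 ± 0.12. Cdkn1a read 3.99, 3.73 and 3.91 without and 5.07, 4.57 and 4.73 with MyoD (adjusted p = 0.00148). Cdkn2b (p15) was the 1 that fell, by 0.59 ± 0.14 (adjusted p = 0.0293, and 0.431 without the block).

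Of 53 cell cycle genes tested, 1 rose and 0 fell, 50 of the 53 changes were above 0, and the median was 0.36. The gene that rose was E2f2, an E2F transcription factor, from -0.52, -2.78 and -2.73 to 3.02, 1.68 and 1.83 (4.19 ± 0.25, adjusted p = 5.71e-06). The list depended on the slide. Its mean level was 2.21 on slide 1 against 0.19 and 0.17 on slides 2 and 3 without MyoD, and 2.27 against 0.80 and 0.89 with MyoD. Its median change was -0.0068 on slide 1, 0.54 on slide 2 and 0.59 on slide 3, so the median was near 0 on the slide where the level was high without MyoD. On slides 2 and 3 alone, 8 of 53 passed, all raised, where 4.39% of all genes were raised in that fit. Besides E2f2 these were the cyclins Ccne1 (0.95 ± 0.20) and Ccne2 (1.56 ± 0.18), the phosphatase Cdc25b (0.92 ± 0.16), the replication licensing genes Cdc6 (1.18 ± 0.25), Mcm2 (0.98 ± 0.18) and Mcm5 (0.86 ± 0.17), and Rrm2, a ribonucleotide reductase subunit (0.92 ± 0.19). These 7 did not pass over all slides (adjusted p from 0.0503 to 0.292) and were singled out after their values were seen.

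**Figure D3:**
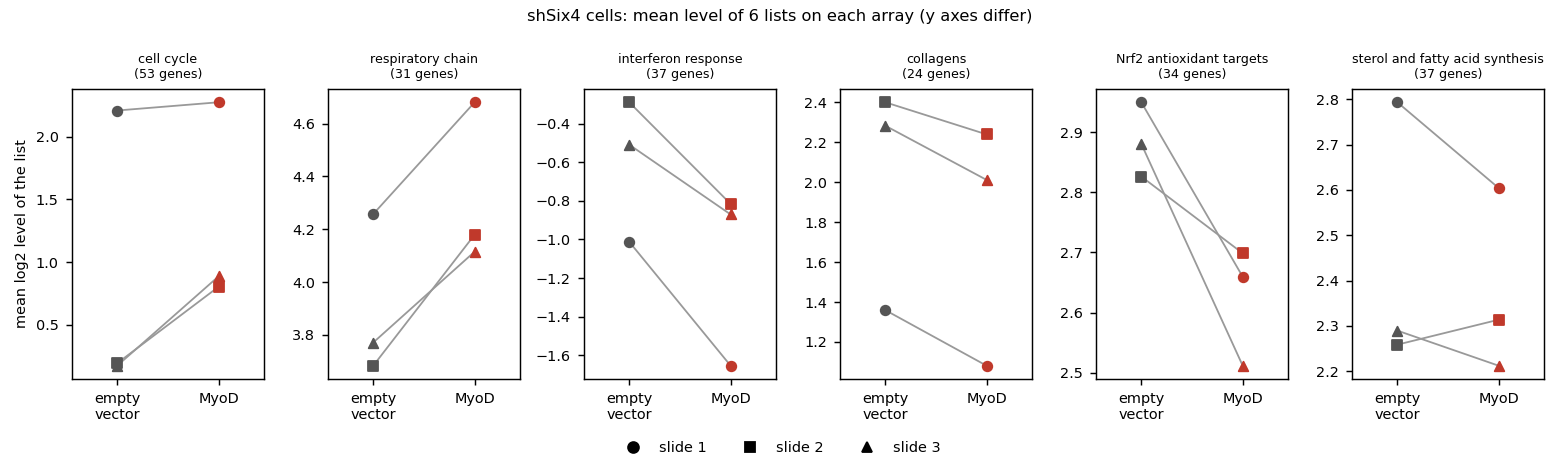
Mean level of the tested members of 6 lists on each shSix4 array (y, log2 relative to the 75th percentile of the array; y axes differ), with lines joining the arrays of a slide. Cell cycle genes stand at 2.21 and 2.27 on slide 1 and at 0.17 to 0.89 on slides 2 and 3, and the interferon response list lies lower with MyoD on each slide.

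Of the 266 genes that MyoD lowered 36 are in any of the 37 lists and 230 in none, and of the 712 raised genes 179 are in any and 533 in none. Gjb5 and Oas1c are the 2 named lowered genes past the threshold in every alternative tried. Gjb5 read -0.14, -1.11 and -0.92 without and -1.92, -2.16 and -2.22 with MyoD (-1.38 ± 0.22, adjusted p = 0.00419). Cspg4, a proteoglycan of pericytes and progenitor cells, read 4.23, 3.76 and 3.97 without and 2.79, 3.21 and 2.97 with MyoD (-0.996 ± 0.173, adjusted p = 0.00681). Its call was lost on slides 2 and 3 alone (adjusted p = 0.0552). The groups do not overlap for either gene.

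Other large falls had more spread. Frzb, a secreted Wnt antagonist, read -5.99, -3.29 and -2.35 without and -7.20, -4.89 and -5.45 with MyoD (-1.97 ± 0.42, adjusted p = 0.0213), and its groups overlap since slide 1 was low in both. The secreted carbonic anhydrase Car6 fell by 1.76 ± 0.33, the keratin Krt15 by 1.55 ± 0.40, the Schwann cell protein Lgi4 by 1.5 ± 0.33, the diacylglycerol kinase Dgki by 1.48 ± 0.34, the sarcosine oxidase Pipox by 1.46 ± 0.29 and Ccdc169 by 1.58 ± 0.35. Rgs7, a regulator of G protein signalling, fell by 1.34 ± 0.28, the tight junction claudin Cldn19 by 1.26 ± 0.28, the fatty acid hydroxylase Cyp4f14 by 1.26 ± 0.28 and the cyclic GMP phosphodiesterase Pde5a by 1.25 ± 0.29. Of these 11 genes, Car6 and Dgki also passed without the block, and each of the 11 lost its call when at least 1 of the 6 shSix4 arrays was left out. Another probe of Lgi4 changed by only -0.38 and did not pass (adjusted p = 0.114 in a limma fit over all kept named probes).

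Wnt genes moved both ways, with 4 of 33 raised and 4 lowered (12.1% each, against 5.80% and 2.17% of all genes). Without the block 0 were raised and 1, Wnt5b, was lowered. The ligand Wnt5b went from 2.54, 1.89 and 1.77 to 0.13, 1.19 and 0.74 (-1.38 ± 0.30, adjusted p = 0.0236) without overlap. The Wnt agonist Rspo2 fell by 0.80 ± 0.18 and Dkk3, of the Dickkopf family, by 0.61 ± 0.13. Axin2, a target and feedback inhibitor of canonical Wnt signalling, rose by 2.24 ± 0.33, Nkd1, another inhibitor, by 1.16 ± 0.30, the ligand Wnt9a by 1.07 ± 0.28 and the matricellular protein Ccn4 by 0.83 ± 0.18. Leaving out replicate 1 or replicate 3 of the empty-vector group ended the call of Wnt5b (highest adjusted p of any alternative 0.0989).

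The interferon response list was the one with the lowest median, -0.51, with 34 of 37 changes below 0, 4 lowered and 0 raised. Its median was -0.69, -0.48 and -0.40 on slides 1, 2 and 3, against -0.023, 0.020 and -0.11 over all genes tested. The oligoadenylate synthetase gene Oas1c read -0.86, -0.67 and -0.60 without and -2.23, -1.35 and -1.77 with MyoD (-1.07 ± 0.17, adjusted p = 0.00352), with no overlap. Ifit3 fell by 0.93 ± 0.20, Oas1a by 0.80 ± 0.13 and Rtp4 by 0.66 ± 0.16. On slides 2 and 3 alone 5 of 37 were lowered, where 0.407% of all genes were.

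Genes that Nrf2 controls in the antioxidant response fell in 4 of 34 cases with 0 raised (median -0.29). The quinone reductase Nqo1 went from 3.22, 2.48 and 2.75 to 2.07, 1.64 and 1.64 (-1.03 ± 0.19, adjusted p = 0.0101), and lost its call without replicate 3 of the MyoD group (adjusted p = 0.0577). The glutathione transferases Gstm1 and Gstm2 fell by 0.63 ± 0.15 and 0.62 ± 0.13, and Keap1, the repressor of Nrf2, by 0.49 ± 0.13. These 3 calls were less stable, with adjusted p of 0.311, 0.296 and 0.598 without the block, where only Nqo1 of the list passed. Keap1 passed in 4 of 22 alternatives and Gstm1 in 11 of 22. In the list for unfolded protein and amino acid stress, Trib3 (-1.37 ± 0.32) and Atf3 (-0.83 ± 0.18) fell and Atf6 rose (0.78 ± 0.19), out of 35. Of 30 p53 targets 2 fell (Perp at -0.91 ± 0.19 and Sesn3 at -0.54 ± 0.13) and 2 rose (Pmaip1 at 1.72 ± 0.31 and Cdkn1a). Of 37 genes of sterol and fatty acid synthesis 0 passed in limma, and the largest change was that of Acat2 (-0.43, adjusted p = 0.0950).

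Of 24 collagens 2 fell (8.33%, against 2.17% of all genes) and 0 rose, Col11a1 (-1.02 ± 0.25) and Col5a1 (-0.45 ± 0.11), with a list median of -0.19. Neither call was stable. The groups overlap for both, and without the block the adjusted p were 0.814 and 0.789. Col11a1 passed in 8 of 22 alternatives and Col5a1 in 6 of 23. The abundant Col1a1 read 7.80, 7.78 and 7.33 without and 7.60, 7.74 and 7.19 with MyoD, which did not pass (-0.13, adjusted p = 0.666). Of 43 other matrix genes 2 fell (4.65%), Cspg4 and Fbln2 (-0.67 ± 0.13), and 3 rose (6.98%, against 5.80% of all genes), osteopontin (Spp1, 1.84 ± 0.31), thrombospondin 1 (Thbs1, 1.22 ± 0.26) and the hyaluronan synthase Has2 (1.02 ± 0.17). Spp1 read 6.17, 3.24 and 2.89 without and 7.85, 5.02 and 4.95 with MyoD, so its groups overlap while each slide showed a rise. Of 22 matrix proteases and inhibitors, those that rose included Adamts4 (1.41 ± 0.32) and Mmp15 (1.21 ± 0.19), and 1 fell (4.55%), Adamts1 (-0.93 ± 0.18).

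Signals between cells changed gene by gene. In the TGF-beta list, of 36 genes, the activin subunit Inhba fell (-0.77 ± 0.16), while Gdf6 (1.25 ± 0.18), the Smad repressor Skil (1.08 ± 0.19), the receptor Acvr2a (0.56 ± 0.13) and Tgfb3 (0.50 ± 0.11) rose. Of 22 chemokine and cytokine genes 4 rose and 1 fell. Il33 went from -4.68, -4.37 and -4.02 to 0.23, -0.74 and -0.69 (3.96 ± 0.33, adjusted p = 6.14e-05), Il6 rose by 3.14 ± 0.35, Ccl5 by 2.12 ± 0.19 and Il15 by 0.67 ± 0.12. Il6 was above background on only 1 empty-vector array and did not pass without the block (adjusted p = 0.117). The KIT ligand Kitl fell from 2.63, 3.01 and 3.05 to 0.86, 2.33 and 1.91 (-1.19 ± 0.24, adjusted p = 0.0159). Semaphorins led the Eph and guidance list, with Sema6a at least 7.63-fold and Sema7a 1.99 ± 0.21 higher. Another probe of Sema6a rose by 1.52, below its log2 bound of 2.93, and did not pass (adjusted p = 0.0600 in a limma fit over all kept named probes). Ephb1, which was below background without MyoD, rose and its ligand family member Efnb2 fell (-0.85 ± 0.20), for 3 raised and 1 lowered of 28.

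Markers of other lineages did not move as blocks. Of 18 adipocyte genes, the regulator Pparg (-0.72 ± 0.14) and the lipid droplet protein Plin4 (-1.09 ± 0.23) fell, and lipoprotein lipase (Lpl, 2.46 ± 0.20) and Cd36, both also made by muscle, rose. Another probe of Lpl rose by 1.05 and did not pass (adjusted p = 0.412 in a limma fit over all kept named probes). Of 23 bone and cartilage genes, the sulphate donor enzyme Papss2 (-0.92 ± 0.18) and Pth1r (-0.71 ± 0.16) fell, and Ucma (5.88 ± 0.74), Dmp1 (3.01 ± 0.25) and Spp1 rose. Ucma, a cartilage matrix protein, read -6.91, -2.89 and -2.45 without and 1.33, 1.81 and 2.26 with MyoD. In the smooth muscle list of 15, Aoc3 fell (-0.87 ± 0.18) and Des, Jph2 and Ptgis rose, the first 2 of which skeletal muscle also makes. In the leukocyte, endothelial, epithelial and neural list of 18, Tek fell (-1.24 ± 0.27), and nestin (Nes, 3.40 ± 0.18), which myoblasts express, Krt18 (at least 1.74-fold) and Vwf (at least 1.30-fold) rose. Of 12 Hox genes 1 fell, Hoxa2 (-0.83 ± 0.14, adjusted p = 0.00670, and 0.794 without the block).

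**Figure D4:**
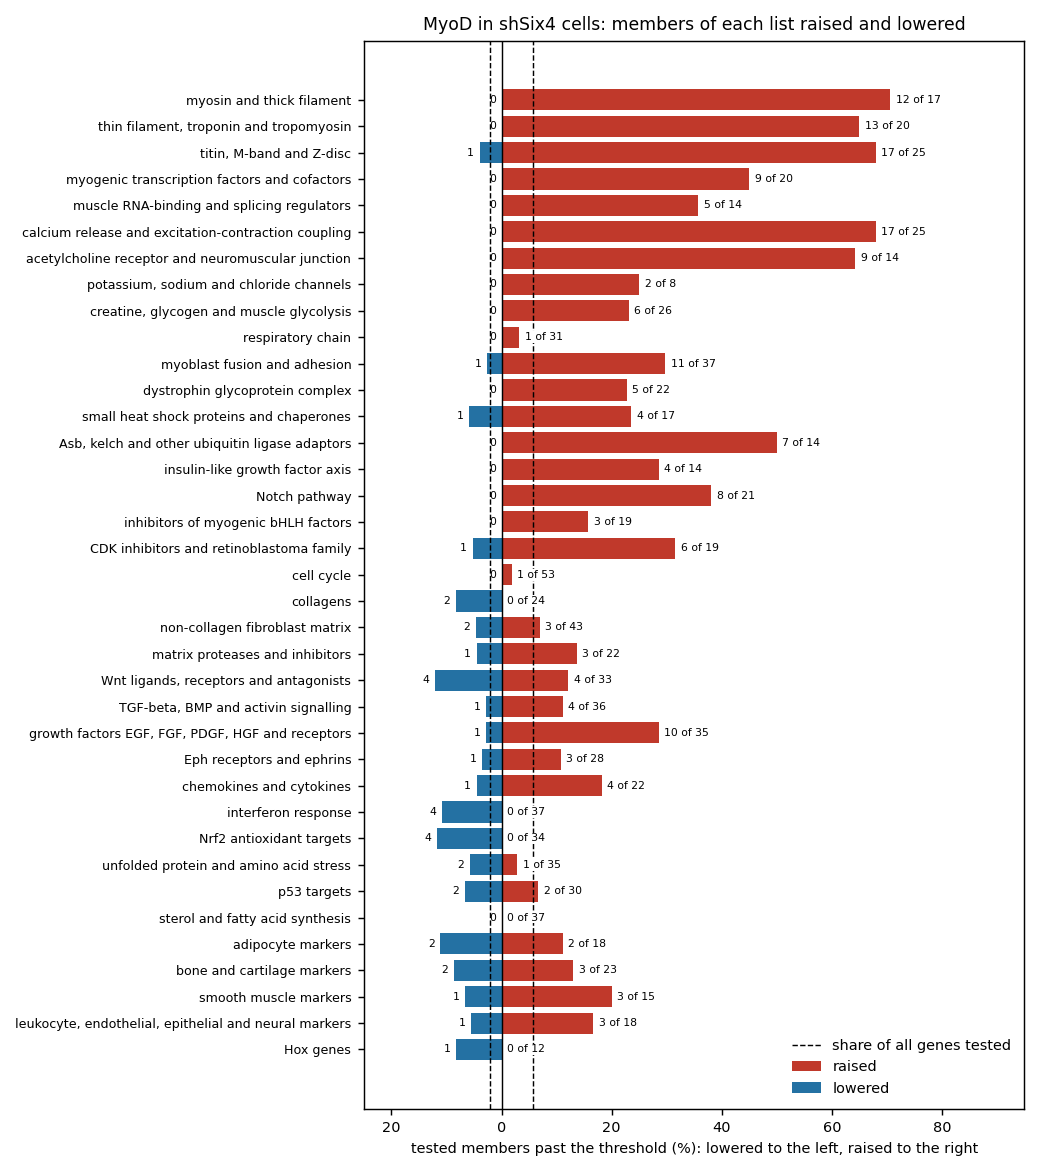
Share of the tested members of each of the 37 lists that were raised (right, red) or lowered (left, blue) by MyoD in shSix4 cells, in percent, with the counts beside the bars. Dashed lines mark the shares over all genes tested, 5.80% and 2.17%; the lists of the sarcomere, of calcium release and of the acetylcholine receptor lie between 64.3% and 70.6% raised.

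Promoters from 250 bases before to 50 after the RefSeq start were found for 539 of the 712 raised, 210 of the 266 lowered and 9857 of all 12278 genes, and both strands were searched. CAGCTG was present in 24.9% of the promoters of raised genes, 28.7% of those raised at least 2-fold, 18.6% of those of lowered genes and 15% of all. CACCTG, written on either strand, was in 22.1%, 24.6%, 19% and 17.2%, and any CANNTG, which includes both, in 71.4%, 75.7%, 71.4% and 63.6%, so that for CANNTG the raised and lowered genes had the same share. These shares are descriptions and no difference among them was tested. The MCAT letters CATTCC were in 18%, 21%, 12.4% and 12%, and the MEF2 motif in 4.45%, 5.52%, 1.90% and 1.79%. The serum response motif CArG was in 2.60%, 2.76%, 0.952% and 1.41%. The MEF3 letters TCAGGTTTC were rare, in 4 promoters of raised genes (0.742%), 1 of a lowered gene (0.476%) and 39 of all (0.396%). The 4 were those of Myog, Kcnj12, Reep1 (3.99, adjusted p = 2.89e-07) and Selp (1.27, adjusted p = 0.00857), and the 1 was that of Arhgef28 (-0.77, adjusted p = 0.0111). Such matches describe letters in a window and are not sites shown to be bound.

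Set beside the shLuc line, the response kept its direction. Of the 712 genes raised in shSix4 cells 655 (92%) were raised in shLuc cells too, which is 53% of the 1236 raised there (10.1% of genes tested). Of the 266 lowered genes 242 (91%) were lowered there, which is 14.4% of 1682 (13.7%), and 0 genes passed in opposite directions. The change was smaller in the shSix4 line for 510 of the 655 and 186 of the 242 genes. These counts include fitted changes of genes below detection without MyoD, and the share over all genes tested was not counted. Whether the response was weaker in the shSix4 line is therefore not shown by them. For no gene did the difference itself pass (0 by limma with and without the block, 743 at an unadjusted p under 0.05, smallest adjusted p = 0.137), so genes that passed in 1 line are not shown to differ between them. Among the named genes closest to the threshold, Chrna1 changed by 9.47 in the shSix4 and 10.75 in the shLuc line (difference -1.28, adjusted p = 0.137), Ephb1 by 1.84 and 4.89 (-3.05, 0.137) and Ccl5 by 2.12 and 0.22 (1.90, 0.137). In the shSix4 line Chrna1 and Ephb1 were well above background on no empty-vector array, and Ephb1 on only 2 MyoD arrays. The Ephb1 rise in that line did not pass with normexp (adjusted p = 0.396). The sizes of these 2 differences are therefore uncertain. Il33 rose by 3.96 against 1.20 (2.76, adjusted p = 0.146), Ttn by 5.71 against 8.87 (-3.16, 0.182) and Mymk by 2.68 against 4.79 (-2.11, 0.182). For Ttn these values are those of its brightest probe, and its other kept probes rose less in the shSix4 line.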

How the data were processed

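Each of the deposited scanner files gives the Cy3 intensity (linear) of the spots of 1 array. The authors used Agilent Feature Extraction (11.5.1.1 per the file headers, 10.5.1.1 per the submitters' processing notes) on cRNA labelled from 300 ng of RNA. Per the file headers, background had been subtracted and spatial trends removed from the processed signal used here, array by array. The authors' deposited table of normalized log2 values (column medians 8.68 to 8.73, r at least 0.9993 with its own array) served only as an alternative; no source used here states how it was normalized. Of 45018 spots 43379 are non-control, 0 were saturated, and averaging a probe's spots, without outlier-marked ones, gave 41174 probes. The 75th percentile of each array was subtracted. A probe was kept if some group of the 4 had it well above background on its 3 arrays (23938), named through RefSeq accessions (24820 of 25268 matched, GRCm38.p6, 16330 probes unnamed), and the brightest probe stood for a gene. In 145 genes 155 values were missing. Another probe had the opposite sign in 8 of 261 called genes with a further kept probe, past the threshold in 0.

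The model (limma 3.58.1, R 4.3.3, jsonlite 2.0.0; 6 residual and 3.40 prior degrees of freedom) had group means and the slide. The replicate number in the labels is the slide in the file headers, so it pairs the arrays; deviations from the group means correlated at 0.82, 0.67 and 0.66 between same-numbered arrays. A bound divides the bright group's mean by the dim group's mean of the higher of its own signal and the lowest signal well above background. Genes were named by rule: the 15 largest rises and falls that share direction on 3 slides, up to 4 risers and 4 fallers of each of 37 lists, Six4, Myod1 and markers. Of 1135 list genes 904 were tested. The members and lists were chosen with earlier results of these data known. The median spot signal replaced the mean signal in normexp (offset 50), since the files used here do not hold the mean. One gene that the rule names is not reported here. The number of arrays limits the precision.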

Additional observations from a re-analysis of the deposited data

How the results depend on the processing

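No named gene reversed under any alternative, and 73 of 154 called ones passed in all. The counts of changed, raised and lowered genes were 371, 358 and 13 without the replicate block, 823, 656 and 167 with the 6 shSix4 arrays alone, 837, 673 and 164 after median centring, and 590, 525 and 65 with no filter on dim probes. They were 171, 111 and 60 with the authors' normalized table, which covers 2624 of the genes, and 589, 539 and 50 on slides 2 and 3 alone (chosen after seeing the data). These counts include genes not called in the main fit. Of its 266 lowered genes, 104 were lowered with the 6 shSix4 arrays alone and 35 on slides 2 and 3 alone. Of its 712 raised genes, 584 and 479 were raised there. Leaving out 1 array gave 530 to 1148 changed, 490 to 807 raised and 40 to 341 lowered genes. The changed count was 530 and 582 without MyoD replicates 1 and 3, and 618 and 571 without empty-vector replicates 1 and 3, of the shSix4 line. Quantile normalization (1103 changed), normexp (745), averaged probes (997), kept outlier spots (958) and a filter on all 6 arrays (732) stayed within 1.5 times. Normexp was run with marked local backgrounds replaced, chosen after seeing the data; the planned version could not be fitted on 3 arrays. The difference between the lines passed for 2 genes after quantile normalization, 1 with the authors' table, 1 on slides 2 and 3 alone and 0 to 1 with 1 array left out (1 without shLuc empty-vector replicate 2). Dim signal limits the bounds. The causes were not tested.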

Other observations

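Genes outside the lists also rose with MyoD in the Six4 knockdown line; those named here were chosen after their values were seen, and each adjusted p comes from the limma fit with Benjamini-Hochberg adjustment over all genes tested. Nmrk2, a nicotinamide riboside kinase found mainly in muscle, was at least 74.2-fold higher with MyoD (adjusted p = 2.2e-07), with log2 differences of 6.49, 8.07 and 7.75 on slides 1, 2 and 3. Car3, the carbonic anhydrase abundant in muscle, liver and fat, was at least 42.6-fold higher (adjusted p = 1.2e-06), with log2 differences of 5.74, 4.91 and 6.31. All 3 MyoD arrays measured both genes well above background, and 0 of 3 empty-vector arrays did. Fndc5, which encodes the precursor of the secreted peptide irisin, rose by 6.81 ± 0.44 (log2, SE; adjusted p = 9.2e-06), and 2 of 3 empty-vector arrays had it well above background. Ppargc1b, a transcriptional coactivator of mitochondrial genes, was well above background on all 6 arrays and rose by 4.67 ± 0.17 (log2, SE; adjusted p = 2.2e-07). Rtn2, a reticulon of the endoplasmic reticulum, was also measured on all 6 arrays and rose by 4.87 ± 0.26 (log2, SE; adjusted p = 2.4e-06), with log2 differences of 5.76, 4.43 and 4.40. All 5 passed the fit without the replicate block too. In the control line (shLuc) the log2 differences were 8.18 for Nmrk2, 6.31 for Car3, 7.61 for Fndc5, 5.63 for Ppargc1b and 4.95 for Rtn2, and the difference between the lines did not pass the test for any of the 5 (adjusted p from 0.346 for Ppargc1b to 0.981 for Rtn2), which does not show that the lines responded alike.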
